A study of Mus musculus with 48 samples.

Results

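Markers of the thick ascending limb of the loop of Henle and of the distal convoluted tubule, 9 genes in all, were followed in cultured mouse kidney slices: Umod, Slc12a1, Kcnj1, Cldn16, Slc12a3, Pvalb, Trpm6, Calb1 and Egf. They were chosen by symbol, and all 9 were found among the 55487 gene IDs of the count table. Each matched 1 ID, and all 9 passed the filter on low counts in every comparison.

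The study measured RNA in slices kept outside the body, taken from males of 2 inbred strains, C57BL/6J and DBA/2J. Each strain contributed 3 libraries to each of 8 conditions, which gives 16 groups and 48 libraries. For 6 h or 24 h the slices were kept as controls, exposed to tunicamycin, which blocks N-linked glycosylation in the endoplasmic reticulum, or exposed to cyclosporin A, a calcineurin inhibitor known for kidney toxicity. In the remaining conditions, titled 24 h, the slices were kept under normoxia, which the labels call an ischemia model, or under normoxia-hyperoxia, called a reperfusion model. No transgene or deletion is labelled in any group. Control and drug slices are titled nephrotoxicity, while the oxygen conditions are titled ischemia or reperfusion and have no control of their own. An oxygen effect against the controls thus cannot be told apart from a difference between the labelled experiments. Drug doses, the oxygen levels and the oxygen of the control slices are not given in the sources used here. Nor do the labels give the mouse behind each slice, so p-values measure the spread between slice libraries. No group held uncultured kidney, so every share kept in culture is relative to the 6 h controls.

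The thick ascending limb reabsorbs sodium, potassium and chloride through the cotransporter NKCC2, and potassium that leaks back through the channel ROMK keeps the lumen positive, which drives calcium and magnesium between the cells. The distal convoluted tubule that follows takes up sodium and chloride through the thiazide-sensitive cotransporter NCC and sets the final magnesium and calcium excretion. Both segments consist of cells rich in mitochondria, and in a bulk sample fewer cells of a type and less RNA per cell cannot be told apart.

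Umod encodes uromodulin, the most abundant protein of normal urine, and lies at chr7:119462711-119479282 on GRCm38. Slc12a1 (NKCC2) is at chr2:125152505-125230002, Kcnj1 (ROMK) at chr9:32372493-32399197 and Cldn16, a tight junction protein needed for magnesium reabsorption, at chr16:26463135-26482765. Of the genes of the distal convoluted tubule, Slc12a3 (NCC) lies at chr8:94329201-94366214. Pvalb, which encodes the calcium buffer parvalbumin, is at chr15:78191114-78206400, and Trpm6, a magnesium channel, at chr19:18749983-18892511. Calb1 encodes the calcium-binding protein calbindin-D28k and lies at chr4:15881264-15908064. Egf, whose product acts on magnesium uptake through Trpm6, is at chr3:129677565-129755316. All are protein-coding genes, and their counts are sums over the whole gene.

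The 3 upstream sequences shown, all from genes of the distal convoluted tubule, were picked because they hold the motif GCCNNNGGC of the AP-2 factors, whose member Tfap2b is expressed in the distal tubule. Each run is the 250 bases before a RefSeq start on GRCm38.p6, 5′ to 3′ on the strand of the gene, and capitals mark the motif. They are Slc12a3 at chr8:94328958-94329207 (plus strand), Pvalb at chr15:78206401-78206650 (minus strand) and Trpm6 at chr19:18749480-18749729 (plus strand).
Slc12a3: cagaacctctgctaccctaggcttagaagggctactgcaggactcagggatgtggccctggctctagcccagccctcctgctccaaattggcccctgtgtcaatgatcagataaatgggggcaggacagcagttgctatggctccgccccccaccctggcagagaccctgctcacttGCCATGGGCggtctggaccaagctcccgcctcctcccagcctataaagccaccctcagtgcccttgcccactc
Pvalb: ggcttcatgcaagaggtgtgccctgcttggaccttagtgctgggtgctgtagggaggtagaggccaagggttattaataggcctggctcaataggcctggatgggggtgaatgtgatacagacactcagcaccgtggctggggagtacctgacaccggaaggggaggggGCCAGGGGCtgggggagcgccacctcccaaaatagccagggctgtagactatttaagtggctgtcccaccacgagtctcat
Trpm6: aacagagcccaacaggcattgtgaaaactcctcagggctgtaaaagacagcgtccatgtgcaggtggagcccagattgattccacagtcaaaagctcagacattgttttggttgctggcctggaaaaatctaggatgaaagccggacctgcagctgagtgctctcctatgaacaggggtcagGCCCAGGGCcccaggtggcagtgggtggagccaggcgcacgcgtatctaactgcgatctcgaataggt

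RefSeq held 10 promoters for 8 of the 9 genes, with a pair each for Pvalb and Egf. Of the motifs searched, 6 in all, 4 are reported here. On either strand GCCNNNGGC was found in 4 of these 10, from Slc12a3, Trpm6 and both Pvalb starts, against 13.7% of 32851 promoters of the same length. The match lay 73 to 65 bases before the start in Slc12a3, 81 to 73 in the Pvalb promoter shown, 164 to 156 in the other Pvalb promoter and 68 to 60 in Trpm6. The hypoxia response core ACGTG occurred in 1 Egf promoter, against 16.6% overall. The estrogen-related receptor motif AAGGTCA (4.08% of all) and the AP-1 motif TGANTCA (6.75%) were in none of the 10.

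Levels are given as CPM, the count scaled to the total of its library. Total counts ran from 5619309, in DBA/2J normoxia-hyperoxia replicate 2, to 25137581 with a median of 19607361, and the lowest count of any of the 9 genes in any library was 41, for Cldn16. Mitochondrial transcripts took 3.11% to 25.65% of the counts, and this share moved with the conditions. In C57BL/6J it was 14.8% to 16.3% in 6 h controls, 5.96% to 7.87% in 24 h controls, 22.8% to 25.6% under normoxia and 12.2% to 16.6% under normoxia-hyperoxia. The DBA/2J ranges were 8.05% to 8.32%, 3.39% to 3.602%, 11.8% to 12.8% and 10.98% to 17.4%. With mitochondrial genes left out of the fits, the counts of the 9 genes called over both strains were as given below in every comparison, as was the count of 7 that differed between strains under normoxia. Markers of the sampled tissue were all present: none of the 10 proximal tubule, 7 principal cell, 8 intercalated cell or 5 podocyte markers was at 0 in any group mean.

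Per kilobase of exon, Umod had the highest level of the 9 genes in all 16 groups. In C57BL/6J 6 h controls it stood at 2333 CPM per kb ± 149 (SD, n = 3). Egf followed at 455 CPM per kb, then Slc12a1 at 337, Slc12a3 at 295, Calb1 at 223, Kcnj1 at 103, Pvalb at 38, Cldn16 at 10.01 and Trpm6 at 8.49. Of these neighbours in level, Slc12a1 and Slc12a3 overlapped in range, as did Cldn16 and Trpm6. In DBA/2J 6 h controls Umod stood at 1258 CPM per kb ± 310 (SD, n = 3). Slc12a3 stood above Slc12a1 there, at 310 and 187 CPM per kb, and Slc12a1 overlapped Calb1 at 184.

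Between 6 h and 24 h of control culture all 9 genes fell in both strains, and in each strain every 24 h library lay below every 6 h library for every one of them. The share of all genes whose libraries separate in this way was not counted, here or below. Over all 16962 genes tested 72.0% changed and 37.4% fell, with 32.6% falling in C57BL/6J and 31.8% in DBA/2J, so a fall as such was common. The median fall of the 9 genes was a log2 fold change of -1.96, beside a median of -0.02 over all genes. Kcnj1, a potassium channel grouped here with the ascending limb, fell most, and Cldn16 and Umod fell least.

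In C57BL/6J, Kcnj1 was at 328, 322 and 377 CPM in the 6 h controls and at 40.7, 62.8 and 49.6 CPM in the 24 h controls. DBA/2J gave 275, 297 and 269 CPM at 6 h and 43.2, 51.1 and 71.0 CPM at 24 h. The mean log2 fold change of Kcnj1 was -2.76 ± 0.13 (SE; adjusted p = 6.86e-10, edgeR). The strains' 24 h ranges overlap, and 14.9% of the 6 h mean was kept in C57BL/6J and 19.6% in DBA/2J.

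Pvalb, the calcium buffer of the early distal convoluted tubule, dropped from 37.1, 38.9 and 42.8 CPM to 4.68, 6.68 and 7.51 CPM in C57BL/6J. In DBA/2J it went from 49.6, 56.8 and 51.2 CPM to 15.3, 10.6 and 20.97 CPM. Its log2 fold change was -2.43 ± 0.15 (SE; adjusted p = 9.38e-09), and at 24 h all DBA/2J libraries lay above all C57BL/6J libraries. Slc12a3, the sodium chloride cotransporter of the same cells, was at 3468, 2901 and 3458 CPM at 6 h and at 559, 773 and 802 CPM at 24 h in C57BL/6J. The DBA/2J libraries held 3168, 4037 and 3141 CPM at 6 h and 1161, 1456 and 1552 CPM at 24 h. Slc12a3 fell by 2.47 on the log2 scale in C57BL/6J and by 1.47 in DBA/2J. The difference between these falls was 1.01 ± 0.22 (SE; adjusted p = 0.0492), the only one of the 9 genes past the threshold, where 0.69% of all genes passed. That call was lost when any of 9 of the 12 libraries was left out, with adjusted p from 0.0404 to 0.162 over the 12. With all libraries it was also lost with RLE (median-ratio) scaling (adjusted p = 0.0592), with total counts (0.071), with mitochondrial genes left out (0.05) and with replicate numbers as a block. It was not lost with DESeq2 or in a fit of all 48 libraries (0.0363). The count of 1 was 2 with DESeq2 and 3 with no filter on low counts.

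Among the remaining genes of the ascending limb, Slc12a1 fell by 1.96 ± 0.32 (SE), Umod by 1.38 ± 0.31 and Cldn16 by 1.35 ± 0.23 on the log2 scale, with adjusted p of 0.000199, 0.00162 and 0.000174. Umod varied widely at 24 h: the libraries held 2806, 3423 and 1456 CPM in C57BL/6J and 645, 2565 and 1982 CPM in DBA/2J. At 6 h the Umod values were 6047, 6425 and 6870 CPM in C57BL/6J and 4363, 3411 and 2655 CPM in DBA/2J. The lowest 24 h library, DBA/2J replicate 1, was low for Slc12a1 and Egf as well, at 146 and 927 CPM, while its Slc12a3 value of 1161 CPM was nearer the other replicates. Egf fell by 2.00 ± 0.22 (SE) and the log2 fold changes of Calb1 and Trpm6 were -1.73 ± 0.19 and -1.55 ± 0.08, each with adjusted p below that of Umod. In C57BL/6J Egf, the growth factor, was at 4794, 4735 and 5864 CPM at 6 h and at 1349, 1652 and 866 CPM at 24 h. In DBA/2J it was at 5096, 5613 and 5021 CPM and then at 927, 2017 and 2306 CPM, so the 6 h libraries were close together and the 24 h libraries were not. Calb1, the calcium buffer shared with the connecting tubule, was at 1144, 1091 and 1013 CPM and then at 164, 394 and 254 CPM in C57BL/6J. The DBA/2J values of Calb1 were 742, 1134 and 793 CPM at 6 h and 362, 448 and 489 CPM at 24 h. Trpm6 varied little among replicates: C57BL/6J libraries held 23.8, 24.2 and 26.7 CPM at 24 h after 61.9, 66 and 68.6 CPM at 6 h. For DBA/2J the Trpm6 values were 19.2, 21.6 and 24.9 CPM at 24 h after 48.2, 61.2 and 49.1 CPM at 6 h.

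Scaling by total counts instead of the trimmed mean of M-values (TMM) moved the median of all genes from -0.02 to 0.19. It left all 9 falls in place, from -2.55 for Kcnj1 to -1.14 for Cldn16, and changed the split of all calls from 5883 higher and 6338 lower to 7580 and 4970.

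**Figure D1:**
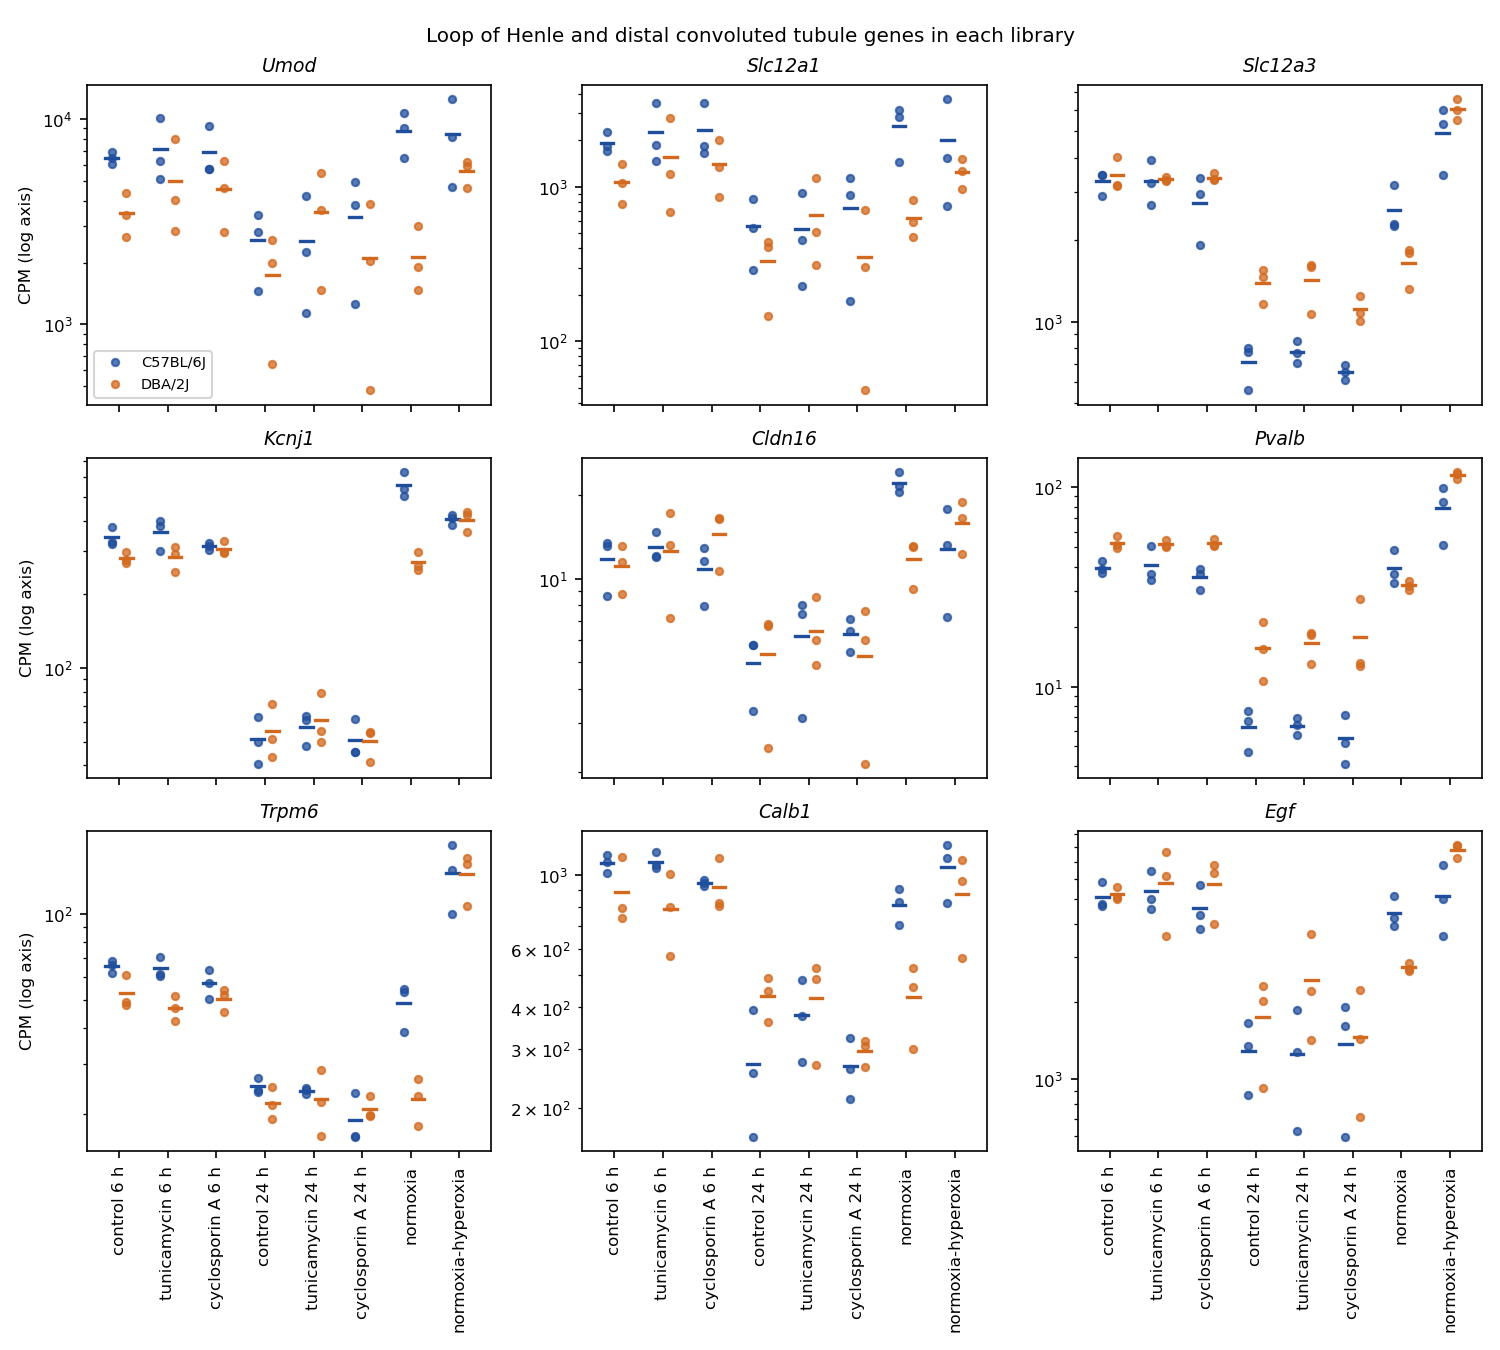
Expression of the 9 genes in each library (points; CPM on a log axis) with the group mean (bar), for 8 conditions in C57BL/6J and DBA/2J, 3 libraries per group. For every gene the 24 h controls lie below the 6 h controls of their strain, and the means of Slc12a3, Pvalb and Trpm6 are highest under normoxia-hyperoxia in both strains.

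The comparison of drug with control at the same time asked whether a nephrotoxin alters the segment genes. With edgeR none of the 9 genes passed the threshold for tunicamycin or cyclosporin A at 6 h or at 24 h, in either strain or over both. At an unadjusted p under 0.05 the counts over both strains were 0 for tunicamycin at both times and for cyclosporin A at 6 h, and 2 for cyclosporin A at 24 h. The share of all genes under that rule was not counted. DESeq2 called 0 in all 4. Over all genes, the share called was 0.0% for both drugs at 6 h, 1.38% for tunicamycin at 24 h and 0.0% for cyclosporin A at 24 h, and within strains at most 0.237%, for tunicamycin at 24 h in DBA/2J.

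The 2 genes with an unadjusted p under 0.05 were Trpm6 and Slc12a3. Cyclosporin A at 24 h gave Trpm6 values of 16.6, 23.7 and 16.7 CPM in C57BL/6J, all below the control values of 23.8, 24.2 and 26.7 CPM. In DBA/2J the Trpm6 libraries overlapped, with 19.7, 19.8 and 23.03 CPM beside 19.2, 21.6 and 24.9 CPM. Calb1 lay below all controls with cyclosporin A in DBA/2J at 24 h, at 306, 265 and 318 CPM beside 362, 448 and 489 CPM (-0.58 ± 0.28 (SE); adjusted p = 1). It did so in C57BL/6J at 6 h as well, at 942, 965 and 927 CPM beside 1144, 1091 and 1013 CPM (-0.16 ± 0.17 (SE); adjusted p = 1). How many of all genes separate in this way was not counted, so these separations are descriptions only. The log2 difference was -0.25 ± 0.10 (SE; adjusted p = 0.67) for Trpm6 and -0.24 ± 0.10 (SE; adjusted p = 0.688) for Slc12a3.

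Over both strains Umod had the largest difference with tunicamycin at 24 h, 0.51 ± 0.48 (SE; adjusted p = 0.727), and Slc12a1 the largest at 6 h, 0.40 ± 0.31 (SE; adjusted p = 1). Within DBA/2J, Umod with tunicamycin at 24 h differed by 1.05 ± 0.69 (SE; adjusted p = 0.681), with 1472, 3619 and 5444 CPM overlapping the 645, 1982 and 2565 CPM of the 24 h controls. For cyclosporin A the largest were Slc12a1 at 6 h, with 0.36 ± 0.24 (SE; adjusted p = 1), and Umod at 24 h, with 0.32 ± 0.54 (SE; adjusted p = 0.957). The last value was -0.06 without DBA/2J cyclosporin A 24 h replicate 3. Standard errors of Umod and Slc12a1 at 24 h were 0.48 to 0.64 log2 units, so differences of such a size were not detectable there. Slc12a1 under cyclosporin A at 24 h ranged from 48.2 to 709 CPM within DBA/2J and from 183 to 1137 CPM within C57BL/6J. Kcnj1 varied less, from 41.3 to 61.9 CPM over the 6 libraries.

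Under normoxia all 9 genes were higher than in 24 h controls, where 82.0% of all 17375 genes tested changed (42.4% rose). These controls carry the nephrotoxicity title, so oxygen and labelled experiment cannot be told apart here. Their median log2 fold change was 1.48, beside 0.05 over all genes. Kcnj1 rose most and Trpm6 least. Total-count scaling moved the median of all genes to -0.22 and the split of all calls from 7359 higher and 6891 lower to 5938 and 8358. The 9 genes remained higher, from 2.87 for Kcnj1 to 0.51 for Trpm6.

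Under normoxia Kcnj1 reached 506, 630 and 537 CPM in C57BL/6J and 252, 298 and 261 CPM in DBA/2J, in each strain far above the 24 h controls. The log2 fold change was 3.15 ± 0.14 (SE; adjusted p = 2.85e-10). Cldn16, its neighbour in the ascending limb, stood at 21.6, 24.3 and 20.6 CPM in C57BL/6J and at 12.98, 13.1 and 9.17 CPM in DBA/2J. It rose by 1.91 ± 0.22 (SE; adjusted p = 6.04e-06) on the log2 scale. No normoxia library of Kcnj1 or Cldn16 overlapped the 24 h controls of its strain. Slc12a1 rose by 1.81 ± 0.38 (SE) and Umod by 1.31 ± 0.37, with adjusted p of 0.00142 and 0.00804.

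In the distal genes Pvalb rose by 2.13 ± 0.17 (SE), Slc12a3 by 1.32 ± 0.13, Calb1 by 1.06 ± 0.21 and Trpm6 by 0.78 ± 0.10 on the log2 scale. Egf rose by 1.48 ± 0.22 (SE). The adjusted p-values of these 5 ranged up to 0.0007, for Calb1.

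The rise under normoxia was larger in C57BL/6J than in DBA/2J for 5 of the 9 genes, by the test of the difference itself, which 17% of all genes passed (6.88% in this direction). They were all 4 distal genes and Kcnj1. The 4 genes not called had values of like size, with Umod at -1.34 ± 0.73 (SE; adjusted p = 0.252), Slc12a1 at -1.11 ± 0.73 (SE; adjusted p = 0.348), Egf at -1.03 ± 0.44 (SE; adjusted p = 0.139) and Cldn16 at -0.87 ± 0.45 (SE; adjusted p = 0.216). The interaction (DBA/2J minus C57BL/6J) was -1.51 ± 0.33 (SE; adjusted p = 0.0103) for Pvalb and -1.50 ± 0.25 (SE; adjusted p = 0.00176) for Slc12a3. It was -1.50 ± 0.41 for Calb1, -1.04 ± 0.26 for Kcnj1 and -0.81 ± 0.21 for Trpm6, with adjusted p of 0.0338, 0.0179 and 0.0169. The Slc12a3 libraries of C57BL/6J rose to 3180, 2242 and 2276 CPM, while those of DBA/2J held 1315, 1786 and 1832 CPM and overlapped their 24 h controls. Without DBA/2J normoxia replicate 1 the count of 5 was 3, without DBA/2J 24 h control replicate 1 it was 7, and with no filter on low counts it was 9. The adjusted p of Calb1 passed 0.05 when any of 7 libraries was left out, up to 0.0786.

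Within strains, 9 of 9 genes rose in C57BL/6J (38.8% of all genes rose) and 6 of 9 in DBA/2J (38.8% rose). The 3 not called in DBA/2J were Umod at 0.64 ± 0.51 (SE; adjusted p = 0.286), Slc12a1 at 1.25 ± 0.52 (SE; adjusted p = 0.0542) and Calb1 at 0.31 ± 0.29 (SE; adjusted p = 0.355). With total-count scaling the count in DBA/2J was 3 of 9.

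Under normoxia-hyperoxia all 9 genes were again higher than in 24 h controls, in each strain, where 68.2% of 17256 genes changed and 34.1% rose (28.8% in C57BL/6J, 28% in DBA/2J). The median log2 fold change was 2.25, against 0.0036 over all genes. Pvalb led, followed by Kcnj1, Trpm6 and Slc12a3, so 3 of the 4 largest rises were in genes of the distal convoluted tubule. Total-count scaling gave -0.17 for the median of all genes, rises from 1.46 for Cldn16 to 3.27 for Pvalb, and a split of all calls of 4699 higher and 7347 lower against 5881 and 5891.

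Pvalb was at 84.3, 51.6 and 99.1 CPM in C57BL/6J under normoxia-hyperoxia, and the 3 DBA/2J libraries held 117, 119 and 111 CPM. Every one of these values was above each control, drug and normoxia library of its strain. The log2 fold change to the 24 h controls was 3.44 ± 0.20 (SE; adjusted p = 3.54e-08). Trpm6, the magnesium channel, was at 142, 99.8 and 173 CPM in C57BL/6J and at 106, 150 and 156 CPM in DBA/2J. Its fold change was 2.73 ± 0.14 (SE; adjusted p = 3.2e-09), with no overlap between groups. Slc12a3 reached 5303, 3453 and 5995 CPM in C57BL/6J and 5507, 6573 and 5984 CPM in DBA/2J, a rise of 2.62 ± 0.14 (SE; adjusted p = 6.72e-10).

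In the ascending limb Kcnj1 rose by 3.10 ± 0.13 (SE), Slc12a1 by 2.05 ± 0.46, Umod by 1.87 ± 0.37 and Cldn16 by 1.63 ± 0.29 on the log2 scale. Egf rose by 2.25 ± 0.25 and Calb1 by 1.66 ± 0.22. Slc12a1 in C57BL/6J was the exception in separation: its normoxia-hyperoxia libraries held 1546, 3707 and 750 CPM, and the lowest lay below the highest 24 h control at 834 CPM. No gene of the 9 passed the test of a strain difference in this rise, where 1.43% of all genes did. The count was 2 at an unadjusted p under 0.05, 0 with DESeq2, 3 with no filter on low counts, and 1 without C57BL/6J normoxia-hyperoxia replicate 2.

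**Figure D2:**
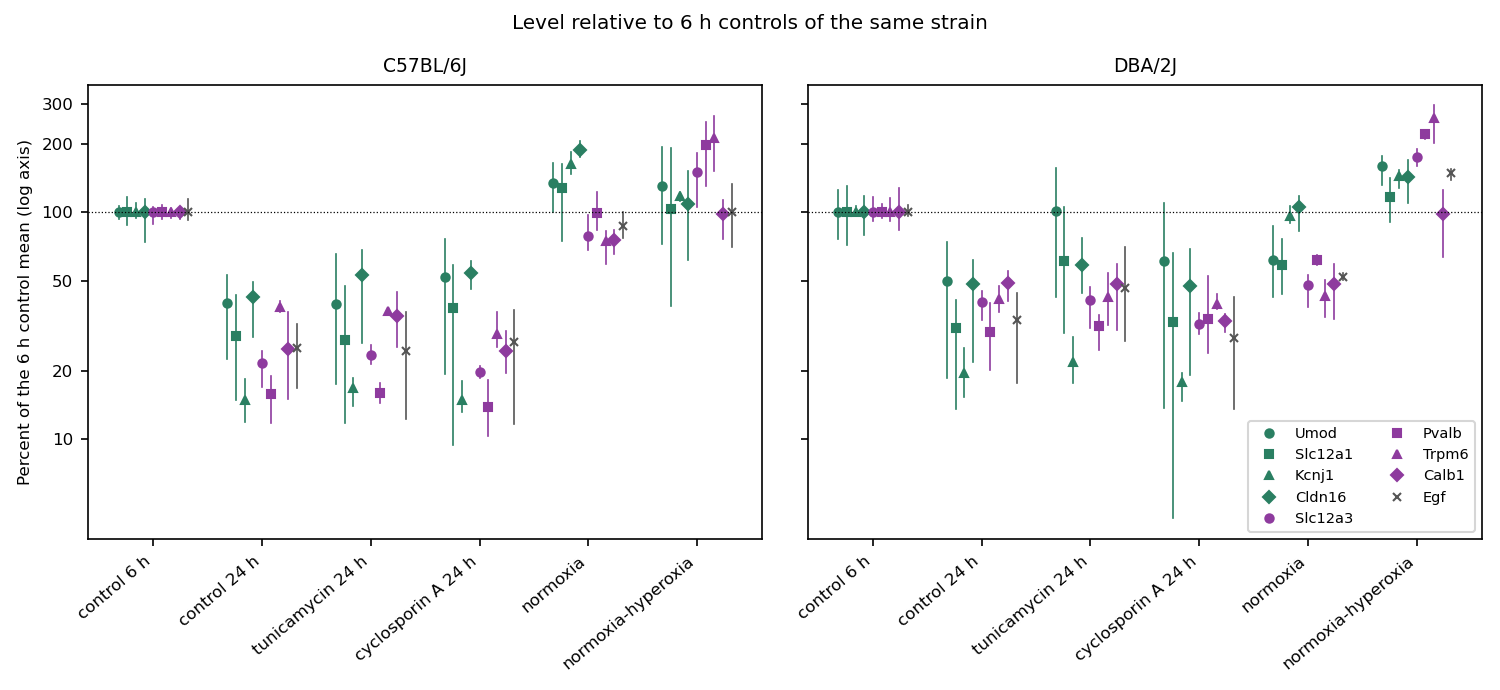
Group mean of each gene as a percent of the mean of the 6 h controls of the same strain (log axis), with lines over the range of the 3 libraries, for ascending limb genes (green), distal convoluted tubule genes (purple) and Egf (grey). The 24 h control means lie between 14.9% and 49.8%, while Trpm6 reaches 211% and 260% under normoxia-hyperoxia in C57BL/6J and DBA/2J.

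Relative to the 6 h controls, the median gene of the 9 kept 25.1% of its level in 24 h controls of C57BL/6J and 40.3% in DBA/2J. Under normoxia these medians were 99.6% and 58.5%, and under normoxia-hyperoxia 118% and 149%. In the drug groups at 24 h they were 27.4% and 46.4% for tunicamycin and 26.7% and 33.3% for cyclosporin A. Single genes departed from these medians: Umod in DBA/2J with tunicamycin was at 101% of its 6 h level and Slc12a1 at 61%, beside 49.8% and 31% in the 24 h controls. Both overlapped the 24 h control libraries, and the Slc12a1 value was 38.6% without replicate 3, which held 1138 CPM against 314 and 515 CPM in the other libraries.

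Set directly against the 6 h controls, the normoxia slices held more of 2 genes and less of 5. Over both strains Kcnj1 and Cldn16 of the ascending limb were higher, and all 4 distal genes and Egf were lower, where 65.8% of 16819 genes changed (32.9% in each direction). Kcnj1 was higher by 0.34 ± 0.07 (SE; adjusted p = 0.000902) and Cldn16 by 0.51 ± 0.13 (SE; adjusted p = 0.00228) on the log2 scale. Trpm6 was lower with -0.81 ± 0.10 (SE), Calb1 with -0.72 ± 0.14, Slc12a3 with -0.69 ± 0.12, Egf with -0.56 ± 0.09 and Pvalb with -0.34 ± 0.09, with adjusted p up to 0.00322. Umod at -0.12 ± 0.18 (SE; adjusted p = 0.592) and Slc12a1 at -0.19 ± 0.21 (SE; adjusted p = 0.436) were not called. In a single fit of all 48 libraries 4 of the 9 were called, with Cldn16, Pvalb and Egf at adjusted p of 0.0706, 0.0835 and 0.102.

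By strain, 2 genes were higher and 3 lower in C57BL/6J (24.7% and 27.8% of all genes), and 5 lower in DBA/2J (27.5%). Kcnj1 differed between strains in this comparison, with an interaction of -0.58 ± 0.15 (SE; adjusted p = 0.0468), which 3.66% of all genes passed. The other 8 genes were not called and ran from -0.94 (Umod) to -0.46 (Calb1), and 8 of the 9 had an unadjusted p under 0.05. The share of all genes under that unadjusted rule was not counted. The count of 1 was 2 with DESeq2, 4 with total-count scaling, 6 with replicate numbers as a block and 9 with no filter on low counts. The Kcnj1 call was lost without any of 9 of the 12 libraries, with adjusted p from 0.0343 to 0.125, and in the fit of all 48 libraries (0.157). In C57BL/6J the count of 5 was 2 without normoxia replicate 3 and 3 without 6 h control replicate 2 or 3. It was also 3 without DBA/2J 6 h control replicate 1 or 3 or DBA/2J normoxia replicate 2 or 3.

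Normoxia-hyperoxia slices held more of 4 genes than the 6 h controls, where 44.9% of 16841 genes changed (22.4% rose). These were Trpm6 at 1.20 ± 0.13 (SE), Pvalb at 1.03 ± 0.12, Slc12a3 at 0.67 ± 0.12 and Kcnj1 at 0.36 ± 0.07 log2 units, with adjusted p up to 0.00103. Calb1, the remaining distal gene, was level with the 6 h controls at -0.06 ± 0.16 (SE; adjusted p = 0.796). Umod at 0.51 ± 0.21 (SE; adjusted p = 0.0582), Cldn16 at 0.30 ± 0.21, Egf at 0.27 ± 0.14 and Slc12a1 at 0.12 ± 0.33 did not pass. Without C57BL/6J normoxia-hyperoxia replicate 3 the count was 7, and Umod, Cldn16 and Egf were called at 0.66, 0.44 and 0.37. Umod was also called with total counts (adjusted p = 0.0459) and without DBA/2J 6 h control replicate 1 (adjusted p = 0.04). Slc12a1 was -0.30 without replicate 2 of that group and 0.32 without replicate 3. By strain, 3 genes were higher in C57BL/6J (10.7% of all genes) and 5 in DBA/2J (17.1%), where Egf was added at 0.57 ± 0.19 (SE; adjusted p = 0.0341). No gene of the 9 passed the test between strains (0.232% of all genes did), with 2 at an unadjusted p under 0.05, 0 with DESeq2 and 1 with no filter. Without the filter the count of 4 was 7.

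**Figure D3:**
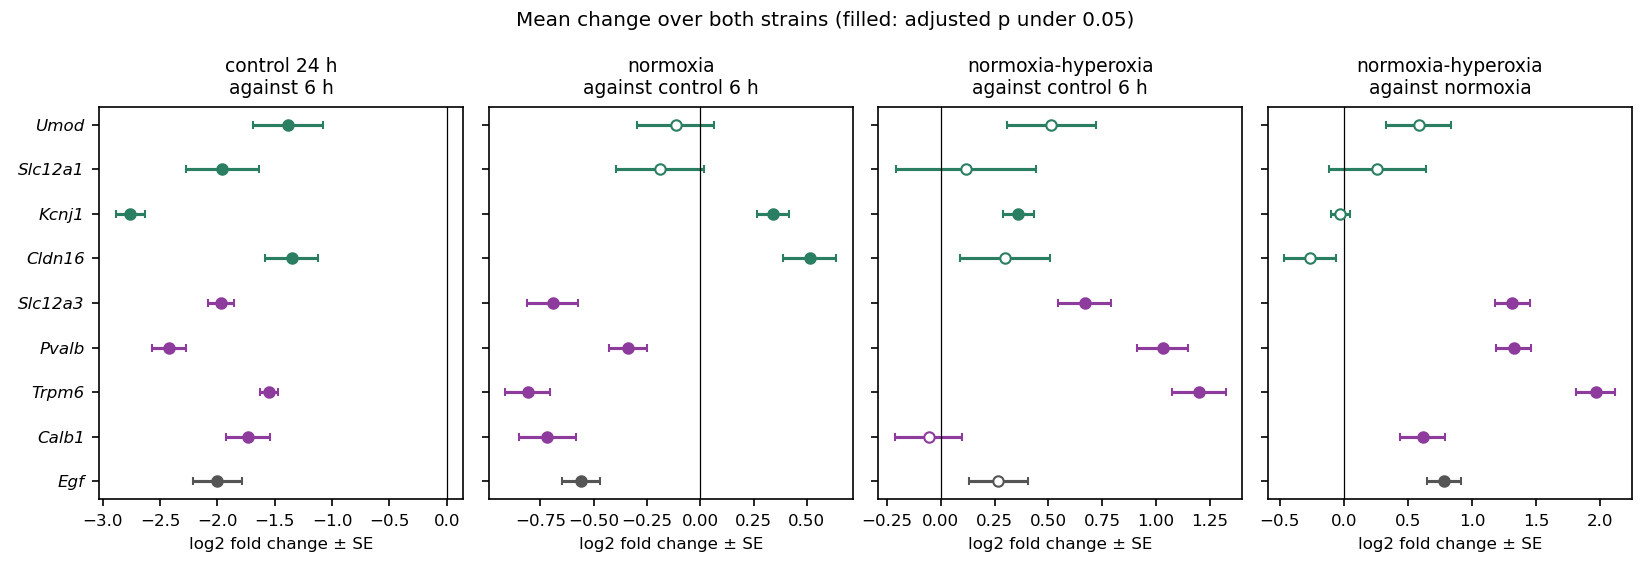
Log2 fold change over both strains with its standard error for 4 comparisons, from edgeR; filled points passed an adjusted p of 0.05. Green marks ascending limb genes, purple distal convoluted tubule genes and grey Egf; under normoxia-hyperoxia against normoxia the purple points lie between 0.61 and 1.96 and the green points between -0.26 and 0.58.

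Compared with normoxia itself, the normoxia-hyperoxia slices were higher in all 4 distal genes and Egf, where 73.5% of 17228 genes changed (37% rose), and none of the 4 ascending limb genes was called. Most marker lists of other cells outside the proximal tubule rose as well, with 5 of 5 podocyte (median 1.20), 7 of 8 endothelial (0.91), 7 of 9 stromal (0.80), 5 of 7 principal cell (0.67), 6 of 8 intercalated cell (0.66) and 6 of 7 immune markers (0.63), beside a median of 0.61 for the 9 genes. Trpm6 rose by 1.96 ± 0.15 (SE; adjusted p = 2.65e-07), Pvalb by 1.32 ± 0.14 (SE; adjusted p = 3.02e-06) and Slc12a3 by 1.31 ± 0.14 (SE; adjusted p = 4.49e-07) on the log2 scale. Egf rose by 0.78 ± 0.14 (SE) and Calb1 by 0.61 ± 0.17. Umod stood at 0.58 ± 0.26 (SE; adjusted p = 0.0587), Slc12a1 at 0.26 ± 0.38 (SE; adjusted p = 0.552), Kcnj1 at -0.03 ± 0.07 (SE; adjusted p = 0.732) and Cldn16 at -0.26 ± 0.20 (SE; adjusted p = 0.264). Umod was called under total-count scaling (adjusted p = 0.0285), with DESeq2 (0.0498) and without C57BL/6J normoxia-hyperoxia replicate 3 or DBA/2J normoxia replicate 1 (0.00869 and 0.0153), and its adjusted p was 0.166 without C57BL/6J normoxia-hyperoxia replicate 2. Without that last library Cldn16 was called lower, at -0.44 (adjusted p = 0.0413). With no filter on low counts 8 of the 9 genes were called, Umod and Slc12a1 higher and Cldn16 lower in addition to the 5.

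The mean of Kcnj1 hid opposite changes: it fell by 0.47 ± 0.10 (SE; adjusted p = 0.00125) in C57BL/6J and rose by 0.41 ± 0.11 (SE; adjusted p = 0.00321) in DBA/2J. The C57BL/6J libraries held 384, 421 and 409 CPM under normoxia-hyperoxia, all below the normoxia values. The DBA/2J libraries held 432, 421 and 358 CPM, all above theirs. The interaction was 0.87 ± 0.15 (SE; adjusted p = 0.00149). Egf showed the other difference between strains, 1.13 ± 0.27 (SE; adjusted p = 0.00992), from 3957, 5162 and 4229 CPM to 5022, 6820 and 3592 CPM in C57BL/6J and from 2639, 2844 and 2679 CPM to 7249, 8112 and 8062 CPM in DBA/2J. Of all genes 18.2% passed this test (7.2% in this direction). The 7 genes not called ran from 0.49 (Calb1) to 1.24 (Umod), and 7 of the 9 had an unadjusted p under 0.05. The share of all genes under that unadjusted rule was not counted. The Egf difference was not called in the fit of all 48 libraries (adjusted p = 0.163). The count of 2 was 5 without C57BL/6J normoxia-hyperoxia replicate 2 or replicate 3. It was 6 with DESeq2 or with replicate numbers as a block, 4 with total-count scaling and 9 with no filter on low counts.

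In DBA/2J 7 of the 9 genes rose (33.8% of all genes), all but Slc12a1 and Cldn16. In C57BL/6J 3 rose (31.3%) and 2 fell (30.5%), the latter Kcnj1 and Cldn16, with Cldn16 at -0.78 ± 0.28 (SE; adjusted p = 0.0305).

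Other cell types moved along with these comparisons, and their part in the results was not tested. The 10 proximal tubule markers, led in level by the phosphate transporter Slc34a1, all fell between 6 h and 24 h with a median of -2.69. All 10 rose under normoxia against 24 h controls, with a median of 3.73. Over all genes 37.4% fell with time and 42.4% rose under normoxia. Against normoxia all 10 fell under normoxia-hyperoxia with a median of -4.81 (36.5% of all genes fell). Against the 6 h controls all 10 fell with a median of -3.90 (3784 of 16841 genes fell). Their summed level in C57BL/6J was 3023 to 6203 CPM in 6 h controls, 479 to 710 CPM in 24 h controls, 7486 to 10150 CPM under normoxia and 207 to 335 CPM under normoxia-hyperoxia. In DBA/2J these ranges were 7864 to 9268, 1228 to 2693, 16140 to 18120 and 740 to 1084 CPM. Slc12a3, Pvalb and Trpm6 thus had their highest means in the group where the proximal markers were lowest, and the 24 h controls were low for both.

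Markers of the collecting duct, the neighbour of the distal tubule, also changed. Over all genes 37.4% fell with time, and against 24 h controls 42.4% rose under normoxia and 34.1% under normoxia-hyperoxia. Against 6 h controls 32.9% rose and 32.9% fell under normoxia, and 22.4% rose under normoxia-hyperoxia. From normoxia to normoxia-hyperoxia 37% rose. Of 8 intercalated cell markers 8 fell with time (median -1.98), 8 rose under normoxia (1.89) and 8 rose under normoxia-hyperoxia (2.54) against 24 h controls. For 7 principal cell markers the counts were 7, 6 and 7 with medians of -1.32, 1.11 and 2.08. Under normoxia against 6 h controls 4 principal cell markers rose and 3 fell (median 0.28), and 1 intercalated cell marker rose and 4 fell (-0.26), beside 2 and 5 of the 9 genes (-0.34). Of 5 podocyte markers 5 fell with time, 4 fell under normoxia and 4 rose under normoxia-hyperoxia. Under normoxia 6891 of all 17375 genes tested fell against 24 h controls. Of 7 tubular injury markers 4 rose and 2 fell with time (median 0.66), and 4 rose and 3 fell under normoxia-hyperoxia against 24 h controls. They were lower under normoxia in 7 of 7, with a median of -4.63, and higher under normoxia-hyperoxia than under normoxia in 7 of 7, with a median of 2.85. Of 8 endothelial, 7 immune and 9 stromal markers 5, 4 and 7 fell with time. Immune markers rose in 6 of 7 under normoxia and in 7 of 7 under normoxia-hyperoxia against 24 h controls, and in 7 of 7 under normoxia-hyperoxia against 6 h controls. Stromal markers fell in 9 of 9 under normoxia against 6 h controls.

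**Figure D4:**
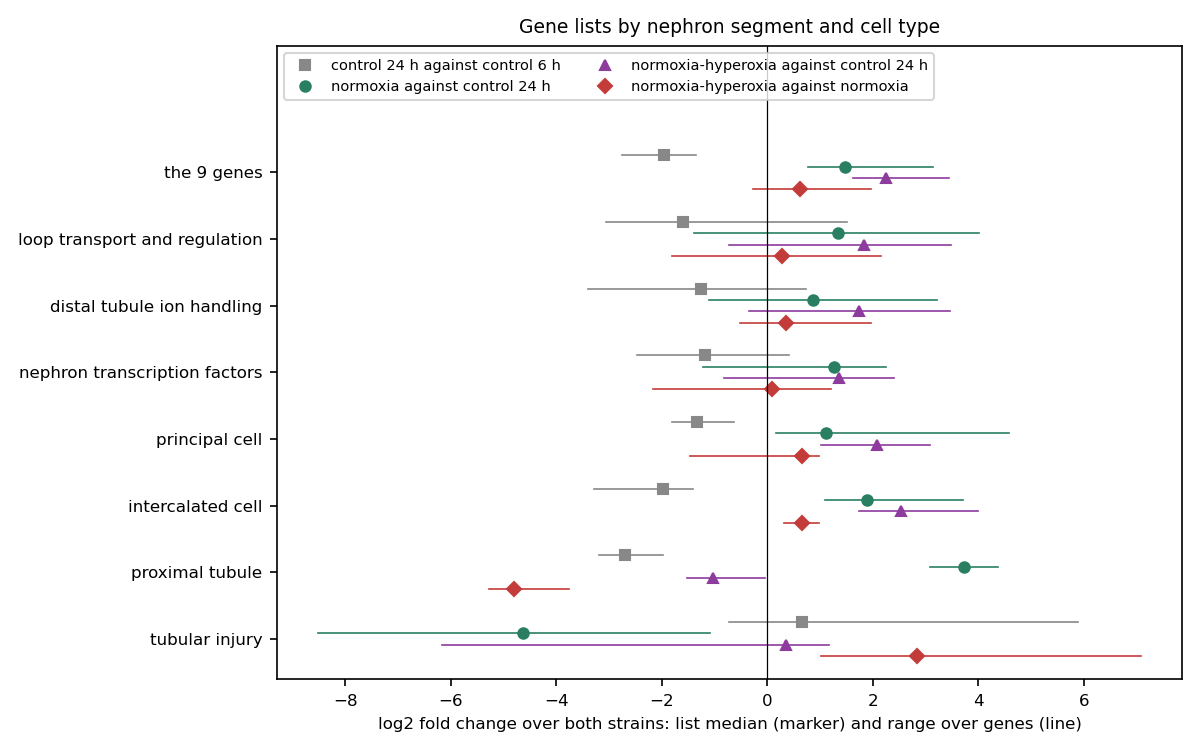
Median (marker) and range over genes (line) of the log2 fold change over both strains, for the 9 genes and 7 lists of other markers in 4 comparisons. The medians of the 9 genes are -1.96 with time and 1.48 under normoxia, while the 10 proximal tubule genes lie at a median of 3.73 under normoxia and -4.81 under normoxia-hyperoxia against normoxia.

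Other genes of ascending limb transport and its regulation were read from a list of 23. Between 6 h and 24 h 20 fell and 1 rose, under normoxia against 24 h controls 18 rose and 4 fell, and under normoxia-hyperoxia 20 rose and 1 fell. Over all genes 37.4% fell with time, 42.4% rose under normoxia and 34.1% rose under normoxia-hyperoxia. The potassium channel subunits Kcnj10 and Kcnj16, which act in the basolateral membrane of the distal convoluted tubule, had the largest falls with time (-3.06 and -2.97) and the largest rises under normoxia (3.68 and 4.01). Kcnj10 (3.48) and the chloride channel subunit Bsnd (2.96) led the rises under normoxia-hyperoxia. Oxsr1, a kinase that activates the cotransporters, was the gene that rose with time (0.90), and it fell under normoxia (-1.39) and under normoxia-hyperoxia (-0.73) against 24 h controls. Under normoxia-hyperoxia against normoxia 12 of the 23 rose and 6 fell, where 37% of all genes rose and 36.5% fell. Sgk1, the aldosterone-induced kinase, rose by 2.15, and the claudin Cldn10 (-1.81) and the protease Hpn (-1.74), which acts on uromodulin, fell most. All 10 proximal tubule markers fell in this comparison as well (median -4.81), and which cells the falls came from was not tested.

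A list of 14 genes for ion handling in the distal tubule had 13 that could be tested. With time 11 fell and 2 rose, and against 24 h controls 11 rose and 2 fell under normoxia and 12 rose and 1 fell under normoxia-hyperoxia. Over all genes 37.4% fell with time, 42.4% rose under normoxia and 34.1% rose under normoxia-hyperoxia. The sodium-calcium exchanger Slc8a1 (-3.40) and Kl, the FGF23 co-receptor (-2.85), fell most with time. Slc8a1 (3.22) and Kl (3.20) rose most under normoxia, and Hsd11b2 (3.46), the enzyme that protects the mineralocorticoid receptor from glucocorticoids, and Slc8a1 (3.17) under normoxia-hyperoxia. Trpv5, the calcium channel of the distal tubule, was 1.67 log2 units lower under normoxia than in 6 h controls (-1.67), and rose by 1.97 under normoxia-hyperoxia against normoxia. That pattern resembles Trpm6 in direction. The magnesium transporter Slc41a1 also rose in the latter comparison, by 1.57, and 8 of the 13 rose while 2 fell, beside 37% and 36.5% of all genes.

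Of 14 transcription factors of the nephron, 13 fell with time and 1 rose, 13 rose and 1 fell under normoxia, and 12 rose and 2 fell under normoxia-hyperoxia against 24 h controls. Over all genes 37.4% fell with time, 42.4% rose under normoxia and 34.1% rose under normoxia-hyperoxia. Esrrg (-2.47) and Ppargc1a (-2.19), regulators of mitochondrial genes, fell most with time, and Pax8 rose by 0.41. Esrrg rose most under normoxia (2.26) and under normoxia-hyperoxia (2.41). From normoxia to normoxia-hyperoxia 4 of the 14 rose and 3 fell, beside 37% and 36.5% of all genes. Tfap2b, the factor whose motif stands in 4 of the promoters above, fell with time (-1.69), rose against 24 h controls under normoxia (2.02) and normoxia-hyperoxia (2.00), and did not pass between these conditions. It was picked out after its values were seen.

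In control and drug slices the main fits called strain differences in 1 to 3 of the 9 genes, where 18.6% to 32.6% of all genes differed. Under normoxia they called 7, where 47.2% of all genes differed. In 6 h controls DBA/2J was lower in Trpm6, by a log2 difference of -0.46 ± 0.11 (SE; adjusted p = 0.00679), and in no other gene, where 26.2% of all genes differed. Umod (-1.04 ± 0.43 SE; adjusted p = 0.101) and Kcnj1 (-0.43 ± 0.17 SE; adjusted p = 0.0759) missed the threshold in this fit. In the other fits that hold the same libraries, looked at after the values were known, Umod had adjusted p of 0.00853 to 0.0448 and Kcnj1 of 0.00672 to 0.0195, and 2 to 4 genes were called. Trpm6 ranged from 0.00763 to 0.0795 in these fits, so its call was not kept in all of them. Leaving out DBA/2J 24 h control replicate 1 gave 4, and leaving out DBA/2J 24 h control replicate 3 or C57BL/6J 24 h control replicate 2 gave 2. With no filter on low counts 5 were called.

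At 24 h DBA/2J controls were higher in Pvalb, by 1.29 ± 0.22 (SE; adjusted p = 0.000991), and in Slc12a3, by 0.94 ± 0.15 (SE; adjusted p = 0.000527), where 22.2% of all genes differed. Both were also higher in DBA/2J with tunicamycin at 24 h (1.32 and 0.82; 18.6% of all genes differed) and with cyclosporin A at 24 h (1.62 and 0.68; 20.7%). In those 3 conditions no other gene of the 9 was called, but without the filter the count in 24 h controls was 6. At 6 h tunicamycin slices of DBA/2J were lower in Kcnj1 (-0.45), Trpm6 (-0.57) and Calb1 (-0.58; 24.0% of all genes differed). Cyclosporin A slices at 6 h were higher in Pvalb (0.41) and lower in Trpm6 (-0.33; 32.6%). The count with tunicamycin at 6 h was 1 without C57BL/6J tunicamycin 6 h replicate 2 or DBA/2J tunicamycin 6 h replicate 1, and 5 without DBA/2J tunicamycin 6 h replicate 2. With cyclosporin A at 6 h it was 1 without replicate 3 of either strain's 6 h controls, C57BL/6J replicate 1 or DBA/2J replicate 1 or 3 of the cyclosporin A slices. It was 0 in the fit of all 48 libraries, 1 with total-count scaling or no filter and 4 with DESeq2. With total-count scaling the tunicamycin count was 1.

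Under normoxia DBA/2J was lower in 7 of the 9 genes, where 47.2% of all genes differed (19.7% lower). Umod held 6462, 10633 and 9024 CPM in C57BL/6J and 3025, 1899 and 1467 CPM in DBA/2J, with no overlap, and differed by -1.97 ± 0.53 (SE; adjusted p = 0.0129). Slc12a1 held 1448, 3149 and 2823 CPM against 821, 596 and 471 CPM, a difference of -1.92 ± 0.53 (SE; adjusted p = 0.0156). Trpm6 held 54.4, 53.1 and 38.6 CPM against 18.2, 23.2 and 26.5 CPM, a difference of -1.06 ± 0.14 (SE; adjusted p = 4.32e-05). In each of these 3 genes all DBA/2J values lay below all C57BL/6J values. Kcnj1 differed by -1.0, Calb1 by -0.88, Cldn16 by -0.87 and Slc12a3 by -0.60. Pvalb at -0.25 ± 0.21 (SE; adjusted p = 0.36) and Egf at -0.66 ± 0.31 (SE; adjusted p = 0.106) were not called. The Egf libraries did not overlap, with 2639 to 2844 CPM in DBA/2J below 3957 to 5162 CPM in C57BL/6J, and in the other fits that hold these libraries Egf had adjusted p from 0.000749 to 0.0131. The proximal markers were higher in DBA/2J at the same time, as the sums above show. Without C57BL/6J normoxia replicate 1 or 2 or DBA/2J normoxia replicate 3 the count was 4.

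Under normoxia-hyperoxia edgeR with the filter on low counts called no strain difference among the 9 genes, where 23.7% of all genes differed, with 0 at an unadjusted p under 0.05 and 0 with DESeq2. Without the filter edgeR called 5. The Slc12a3 difference was 0.18 ± 0.18 (SE; adjusted p = 0.517) and that of Trpm6 -0.12 ± 0.17 (SE; adjusted p = 0.666). For Umod it was -0.72 ± 0.51 (SE; adjusted p = 0.345), an error too large to show a difference of that size.

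Within a group, libraries differed in a way that in part followed the segments. After the group mean was removed from log2 CPM, Umod and Slc12a1 had a Pearson correlation of 0.973 over the 48 libraries (Spearman 0.974), and Umod and Egf of 0.935 (0.894). Slc12a3 followed Pvalb at 0.692 (0.777) and Trpm6 at 0.661 (0.618). Across segments some pairs were negative: Umod with Pvalb gave -0.603 (-0.529) and Slc12a1 with Slc12a3 -0.422 (-0.435). Others were not: Kcnj1 was positive with all 4 distal genes, from 0.096 for Trpm6 to 0.517 for Calb1, and Umod with Calb1 gave -0.057 (-0.084). Over all pairs, r was 0.285 to 0.973 among the 4 ascending limb genes, 0.439 to 0.692 among the 4 distal genes and -0.611 to 0.517 between them, with a median of -0.226. Kcnj1 was the least tied to the ascending limb genes it was grouped with, with r of 0.382 to Umod and 0.517 to Calb1. These are descriptions: the libraries of a group share its mean, and all genes of a library share its total.

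The C57BL/6J normoxia-hyperoxia group shows the contrast in single libraries. Replicate 2 was highest of the 3 in Umod (12490 CPM) and Slc12a1 (3707 CPM) and lowest in Slc12a3 (3453 CPM), Pvalb (51.6 CPM) and Trpm6 (99.8 CPM). Replicate 3 was the reverse, with 4659 CPM of Umod, 750 of Slc12a1, 5995 of Slc12a3, 99.1 of Pvalb and 173 of Trpm6.

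**Figure D5:**
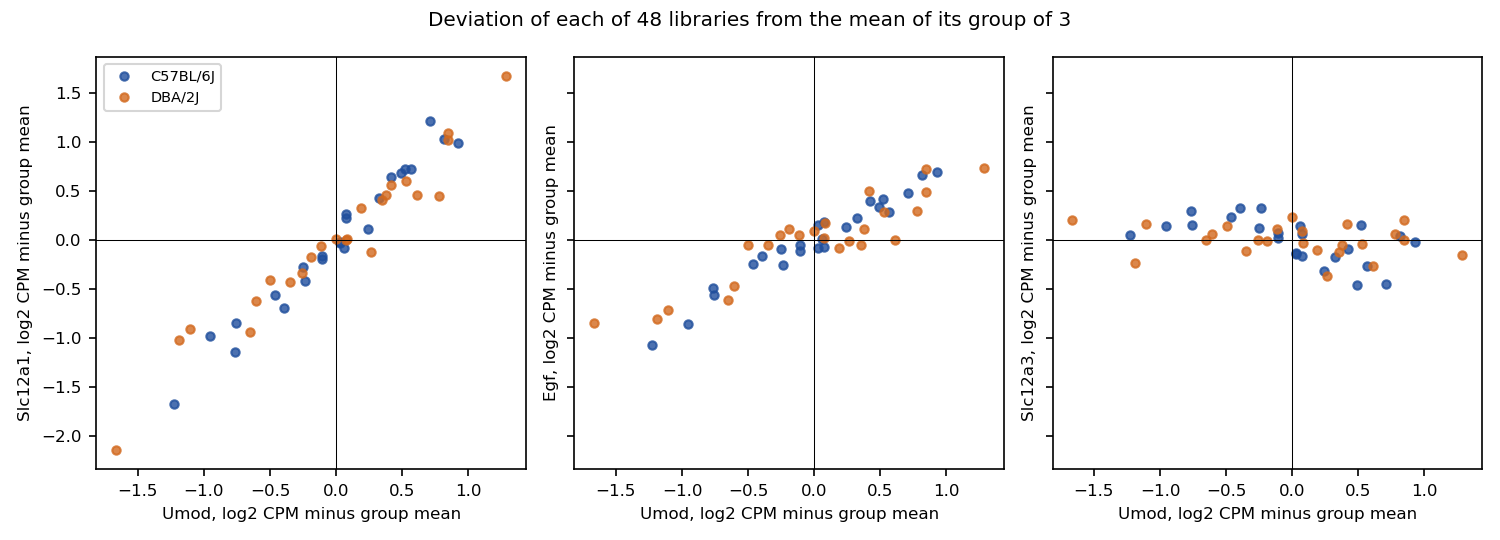
Deviation of each of the 48 libraries from its group mean in log2 CPM, with Umod on the x axis and Slc12a1, Egf or Slc12a3 on the y axis (blue C57BL/6J, orange DBA/2J). Slc12a1 and Egf lie along a rising line (r of 0.973 and 0.935), while Slc12a3 does not (r of -0.397).

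Across the 16 group means the 9 genes were positively correlated in every pair, with r from 0.697 to 0.922 between the segments and from 0.855 to 0.982 within them. The named genes most like each of the 9 over the 16 group means were Igf1, Mfsd4a and Pla1a for Umod (r of 0.984, 0.983 and 0.980) and Ptger3, Lurap1 and Erbb4 for Slc12a1 (0.983, 0.983 and 0.981). Oxgr1, Txndc16 and Slc4a1 were most like Kcnj1 (0.996, 0.995 and 0.995) and Slx1b, Cep68 and Pnmal2 most like Cldn16 (0.991, 0.983 and 0.980). Sult1a1, Cwh43 and Tmem213 were nearest to Slc12a3 (0.993, 0.993 and 0.992), and Arhgap45, Pamr1 and Myrip to Pvalb (0.992, 0.989 and 0.984). For Trpm6 they were Syt9, Defb1 and Grk3 (0.979, 0.975 and 0.975), for Calb1 Adamtsl2, Pfkm and Epas1 (0.978, 0.978 and 0.977), and for Egf Wnk4, Colgalt2 and Tspan1 (0.992, 0.990 and 0.988). With the median-ratio (RLE) scaling of DESeq2 the third name changed for Slc12a1, to Cyfip2, and for Pvalb, to Sult1a1, while the order of Defb1 and Grk3 for Trpm6 and of Sult1a1 and Cwh43 for Slc12a3 was exchanged.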

How the data were processed

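RNA-seq counts were read from the table the authors deposited: whole-number counts per Ensembl gene, without normalization. Per the submitters' processing notes, bcl2fastq 2.20.0, FastQC 0.11.8, STAR 2.7.9a and featureCounts 1.5.1 were used on GRCm38. The strand setting and annotation release are not given in the sources used here, so reads of overlapping antisense genes may be shared. Symbols matched 55141 of 55487 IDs, and coordinates and exon lengths are those of GENCODE M21 on GRCm38. Promoters are from RefSeq (GRCm38.p6).

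Each comparison was fitted on its own 12 libraries (4 groups of 3) with edgeR 4.0.16 in R 4.3.3: TMM scaling, the default filter by group, and a robust quasi-likelihood F test, with Benjamini-Hochberg adjusted p under 0.05 over all genes tested. Contrasts were the mean over strains, each strain, the interaction and the strain difference. Percentages of all genes called are from these fits at this threshold, and none was counted at an unadjusted p. On simulated data for normoxia against 24 h controls (17375 genes), 94% of genes changed by 1 log2 unit and 100% of those changed by 2 were recovered, with 5.825% false calls. Only 100 genes were changed at each size, with rises and falls balanced, and only the mean over strains was checked. In the real comparison 82.0% of genes were called. The simulation therefore says nothing on scaling under so wide a change or on the interaction and strain tests.

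The 9 genes and the lists were chosen with earlier results of these data known. Genes named from the other lists were those past the threshold with the largest rises and falls at a mean log2 CPM of at least 1, and some that met this rule are not reported here. No 2 replicates agreed within sampling noise (chi-square per degree of freedom 5.764 to 75.442). The closing section gives the alternatives: RLE factors, total counts, mitochondrial genes left out, no filter, DESeq2 1.42.0, a fit of 48 libraries, a replicate block and each library left out. For correlations, log2 CPM used a prior count of 2.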

Additional observations from a re-analysis of the deposited data

Results flagged for a closer look

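The 9 results given here stood out because the change differed between the strains by the test of the interaction (DBA/2J minus C57BL/6J, log2 units, edgeR). Between 6 h and 24 h in controls, Slc12a3 fell less in DBA/2J, with a difference of 1.01. Under normoxia against 24 h controls the rise was smaller in DBA/2J for Pvalb (-1.51), Slc12a3 (-1.50), Calb1 (-1.50), Kcnj1 (-1.04) and Trpm6 (-0.81). Under normoxia-hyperoxia against normoxia the change was larger in DBA/2J for Egf (1.13) and Kcnj1 (0.87), and Kcnj1 changed in opposite directions in the strains. Under normoxia against 6 h controls Kcnj1 differed by -0.58. The comparisons share control and normoxia libraries, so these values are not independent of one another. The levels in 24 h controls themselves differed between strains for Slc12a3 and Pvalb, with DBA/2J higher by 0.94 and 1.29.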

How the results depend on the processing

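Of 67 results on single genes, 48 kept their direction and side of the threshold under every setting tried, and 1209 of their 1273 alternative values did so. The counts of 9 for the fall with time and for the rises under normoxia and normoxia-hyperoxia against 24 h controls, and the counts of 0 for the drugs, held under every setting over both strains. Where a value moved, the cause was not tested.

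Settings changed these counts of genes called. The strain difference in the fall with time, 1 gene, was 0 with RLE factors, total counts, mitochondrial genes left out and the replicate block, 3 without a filter and 2 with DESeq2. For normoxia against 24 h controls, the count in DBA/2J was 3 with total counts and that of strain differences 9 without a filter. For normoxia-hyperoxia against 24 h controls, strain differences numbered 3 without a filter. For normoxia-hyperoxia against normoxia the count was 8 without a filter. Its strain differences numbered 4 with total counts, 9 without a filter, 6 with DESeq2 and 6 with the replicate block. For normoxia against 6 h controls the count was 4 in the fit of 48 libraries. In C57BL/6J it was 3 with RLE factors, total counts, mitochondrial genes left out and the fit of 48. Its strain differences numbered 4 with total counts, 9 without a filter, 2 with DESeq2, 6 with the replicate block and 0 in the fit of 48. For normoxia-hyperoxia against 6 h controls, the counts without a filter were 7 and, for strain differences, 1.

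Genes differing between strains numbered 5 without a filter and 2 in the fit of 48 in 6 h controls, where the other fits of those libraries, added after seeing the data, gave 3 (both drug fits), 4 (normoxia) and 2 (normoxia-hyperoxia). They numbered 6 in 24 h controls and 5 under normoxia-hyperoxia without a filter. With tunicamycin at 6 h the count was 1 with total counts. With cyclosporin A at 6 h it was 1 with total counts and without a filter, 4 with DESeq2 and 0 in the fit of 48. TMM-scaled CPM gave median shares kept of 22.4% for C57BL/6J cyclosporin A at 24 h and 63.9% for DBA/2J normoxia.

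With each library left out, strain differences in a change ran from 0 to 1 with time, 3 to 7 for normoxia and 0 to 1 for normoxia-hyperoxia against 24 h controls, 2 to 5 for normoxia-hyperoxia against normoxia and 0 to 1 for normoxia against 6 h controls. The count in DBA/2J for normoxia against 24 h controls ran from 4 to 7, in C57BL/6J for normoxia against 6 h controls from 2 to 5, and over both strains for normoxia-hyperoxia against 6 h controls from 4 to 7. Genes differing between strains ran from 1 to 4 in 6 h controls, 1 to 5 with tunicamycin and 1 to 3 with cyclosporin A at 6 h, and 4 to 8 under normoxia.

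Directions turned only for values that were not called. Kcnj1 for normoxia-hyperoxia against normoxia was 0.057 with total counts and 0.0017 in the fit of 48, and -0.084 to 0.0081 with libraries left out. Slc12a1 for normoxia-hyperoxia against 6 h controls was -0.023 with the replicate block, and -0.30 to 0.32 with libraries left out. The other ranges with libraries left out were -0.063 to 0.55 for Umod with cyclosporin A at 24 h, -0.15 to 0.44 for Slc12a1 in normoxia-hyperoxia against normoxia, -0.27 to 0.0198 for Umod in normoxia against 6 h controls and -0.15 to 0.048 for Calb1 in normoxia-hyperoxia against 6 h controls.

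The replicate block rests on numbers in the labels. Same-numbered libraries correlated over 0.1 in 31 of 60 pairs (-0.139 to 0.366), in every pair of 0 of the 10 comparisons. By that rule the numbers were not taken as pairing. Both libraries of a pair correlated best with their own number in 36 of 60. Normoxia against 6 h controls came nearest, with 5 of 6 pairs over 0.1, the lowest at 0.067, and 6 of 6 best with their own number. Whether same-numbered libraries shared a mouse or a batch was not settled, so tests without the block may ignore a pairing. Cldn16 had the lowest count of any of the genes in any library, 41. The 3 libraries per group limit Umod and Slc12a1, whose spread within groups was the widest.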
